A study of Homo sapiens with 6 samples.

Results

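The collagen genes are the genes of the fibers, networks and membrane anchors of the extracellular matrix. They were taken as every row of the count table whose gene name has the form COL, a number, A and a number, and this gave 44 of the 57341 named genes, which encode chains of 28 collagen types. RNA of the human adrenocortical carcinoma line H295R was sequenced in 3 libraries of parental cells, called H295R here, and in 3 libraries of the cells that the study named H295R-PM-Ptc+. The latter were taken from the same line by flow cytometry with an antibody to Ptch1, a Hedgehog receptor, at the cell surface, and were then amplified in culture. Both populations grew untreated in the same medium with a serum supplement, and H295R-PM-Ptc+ is 1 sorted and expanded population, so the libraries describe that population and not other sorts. The labels do not say whether the replicates came from separate cultures, so the p-values measure the spread between these libraries, which may be technical.

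Each collagen molecule is a trimer of α chains wound into a triple helix of Gly-X-Y repeats, and the chains of a trimer are often products of different genes. Fibrillar collagens (I, II, III, V, XI, XXIV, XXVII) form the cable-like fibers of connective tissue, collagen IV forms the sheet-like network of basement membranes, and collagen VI forms beaded filaments around cells. Smaller groups sit on fibers (the FACIT group, fibril-associated collagens with interrupted triple helices), anchor epithelia (collagen VII), cross the plasma membrane (XIII, XVII, XXIII, XXV) or carry heparan or chondroitin sulfate chains in the basement membrane zone (the multiplexins XV and XVIII). In the adrenal cortex, cords of steroid-producing cells rest on basement membrane beside thin-walled capillaries, under a capsule rich in fibrillar collagen.

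The group labels could not be taken at face value. PTCH1, the gene behind the sort, had 441, 559 and 579 counts in the H295R-labelled libraries and 248, 326 and 319 in the H295R-PM-Ptc+-labelled ones, so it was lower in the libraries labelled for high Ptch1, at a log2 fold change of -0.81 (SE 0.147, adjusted p = 0.0207, edgeR). Its adjusted p was 0.0799 without H295R-labelled replicate 2, 0.0921 without H295R replicate 3 and 0.0618 without H295R-PM-Ptc+ replicate 2. The study's own normalized values carry the 2 group names the other way round, with each of the 6 libraries matched by its replicate code. All groups are therefore named below as the deposited table labels them, every fold change gives the H295R-PM-Ptc+-labelled libraries over the H295R-labelled ones, and if the deposited labels are exchanged every direction below turns. The libraries held 23264403 to 25813247 counts. The adrenocortical genes fixed as markers summed to between 876 and 1155 CPM (counts-per-million) in the H295R-labelled libraries and to between 955 and 1213 in the others, with 7 of 8 tested and CYP11B1 at 3 counts or fewer, and of the 7 CYP21A2 was higher (log2 fold change 0.88, adjusted p = 0.0067). With the replicate number as a block STAR was also higher (0.41 on the log2 scale, adjusted p = 3.91e-06, and 0.346 without the block) and CYP11A1 was lower (-0.24, adjusted p = 0.0010, and 0.391 without it). Of the 7 fibroblast markers, LUM and POSTN had no counts, DCN had at most 5, and the summed level of 37.2 to 41.1 CPM against 46.4 to 53.0 CPM was nearly all FAP. The 4 endothelial markers summed to at most 0.274 CPM in any library, and of the 3 leukocyte markers PTPRC and CD68 had no counts and CD14 had 20, 29 and 15 against 26, 32 and 25 (log2 fold change 0.38, adjusted p = 0.536).

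Between 0.0821% and 0.113% of all counts fell on collagen genes. Levels are given as RPKM, the CPM on TMM-scaled library sizes divided by the annotated exon length in kilobases, since chains differ in length. The highest collagens were COL4A2, with 18.99% of the summed collagen RPKM over the 6 libraries, COL15A1 with 16.9%, COL11A1 with 11.1%, COL4A1 with 9.45% and COL6A2 with 8.08%, and these 5 genes together held 64.6%. The next were COL26A1 with 7.95%, COL3A1 with 5.04%, COL18A1 with 4.33%, COL4A4 with 3.65% and COL25A1 with 2.07%. This order is over both labels, and COL3A1, for example, was the seventh highest collagen in the H295R-PM-Ptc+-labelled libraries (9.76 RPKM) but stood below COL4A4 and COL18A1 in the H295R-labelled ones (3.42 RPKM against 5.19 and 4.61). COL4A2 and COL15A1, of the basement membrane and its border zone, thus led, but the fibrillar gene COL11A1 came next, above COL4A1. The chains of collagen I, the most abundant collagen of connective tissue, were low (COL1A1 with 0.70%) or nearly missing (COL1A2).

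**Figure D1:**
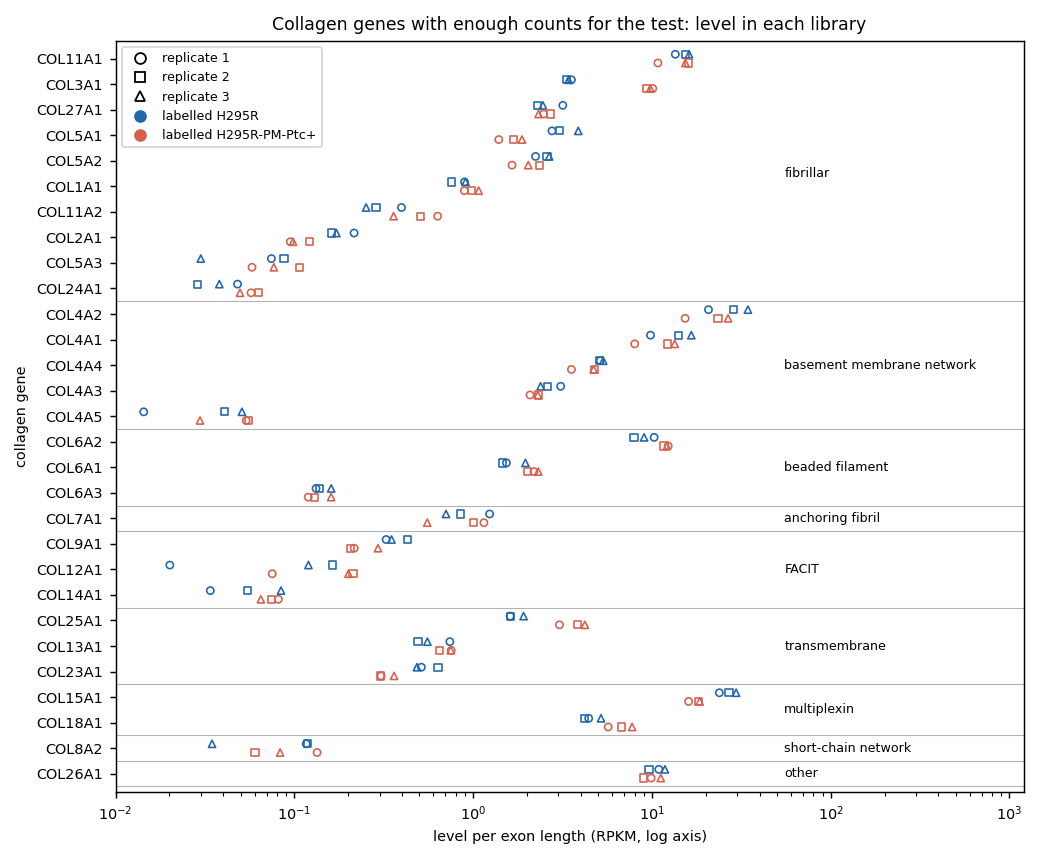
Level of the 29 tested collagen genes in each of the 6 libraries, in RPKM on a log axis, grouped by class, with blue symbols for libraries labelled H295R, red symbols for the H295R-PM-Ptc+-labelled ones and 1 symbol shape for each replicate number. COL3A1 and COL25A1 lie apart to the right in red, COL5A1 and COL15A1 to the left, and in both colours the circle of replicate 1 is the lowest of its group for COL4A1 and COL4A2.

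Of the 44 genes, 29 had enough counts for the test and 15 did not. COL4A6, COL6A5 and COL10A1 had no count in any library, which allows up to 0.117 to 0.130 CPM per library, the level of 3 counts (counting error only). COL6A6, COL19A1 and COL21A1 had at most 3 counts in every library and were taken as not detected. The other 9 (COL1A2, COL8A1, COL9A2, COL9A3, COL16A1, COL17A1, COL20A1, COL22A1 and COL28A1) were detected at no more than 10 counts a library. COL9A3, a chain of the FACIT collagen IX, had 5 counts in each library labelled H295R and 10, 10 and 9 in the others, without overlap, but stayed under the filter on low counts.

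Of the 29 tested collagen genes, 3 were higher and 2 lower in the H295R-PM-Ptc+-labelled libraries at an adjusted p under 0.05 (edgeR quasi-likelihood test, two-sided, Benjamini-Hochberg adjustment over all 16710 tested genes). COL3A1 (collagen III), COL25A1 (a membrane collagen) and COL18A1 (the precursor of endostatin) were higher, and COL5A1 (collagen V) and COL15A1 (collagen XV) were lower. The 5 genes were 17.2% of those tested, against 3.73% of all tested genes, 2.42% higher and 1.32% lower. At an unadjusted p under 0.05 there were 13 (44.8%, against 17.3% of all tested genes), and in 13 the libraries of one label did not overlap those of the other (44.8%, against 23.5%), 6 of them above (against 12.4% of all tested genes) and 7 below (against 11.2%). The median log2 fold change was -0.04 for the collagens and 0.00094 for all tested genes, and the median of its absolute size was 0.35 against 0.13. The tested collagen genes thus differed in both directions. Of the 15 not tested, all at 10 counts or fewer, 12 had a higher mean CPM in the H295R-PM-Ptc+-labelled libraries and 0 had a lower one. The groups did not overlap in 4 of these, COL9A2, COL9A3, COL19A1 and COL21A1. For COL19A1 and COL21A1 this was 0 counts in each H295R-labelled library and 1 in each of the others. The share over all untested genes was not computed, so no direction is read from these counts. In bulk RNA such as this, fewer cells that express a gene and less RNA of it per cell cannot be told apart.

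Same-numbered libraries of the 2 labels varied together, and with the replicate number as a block 17 collagen genes passed (58.6%, against 22.5% of all tested genes). Of these, 7 were higher (against 12.1% of all tested genes) and 10 were lower (against 10.4%), and each of the 17 moved its own way in all 3 pairs of same-numbered libraries. The 12 that passed with the block alone are given with both adjusted p-values below, and the other 12 tested genes passed in neither fit. Without the block, the count of 5 fell to 3 without H295R-labelled replicate 2, without H295R replicate 3 and without H295R-PM-Ptc+ replicate 2, where COL15A1 and COL18A1 were lost.

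**Figure D2:**
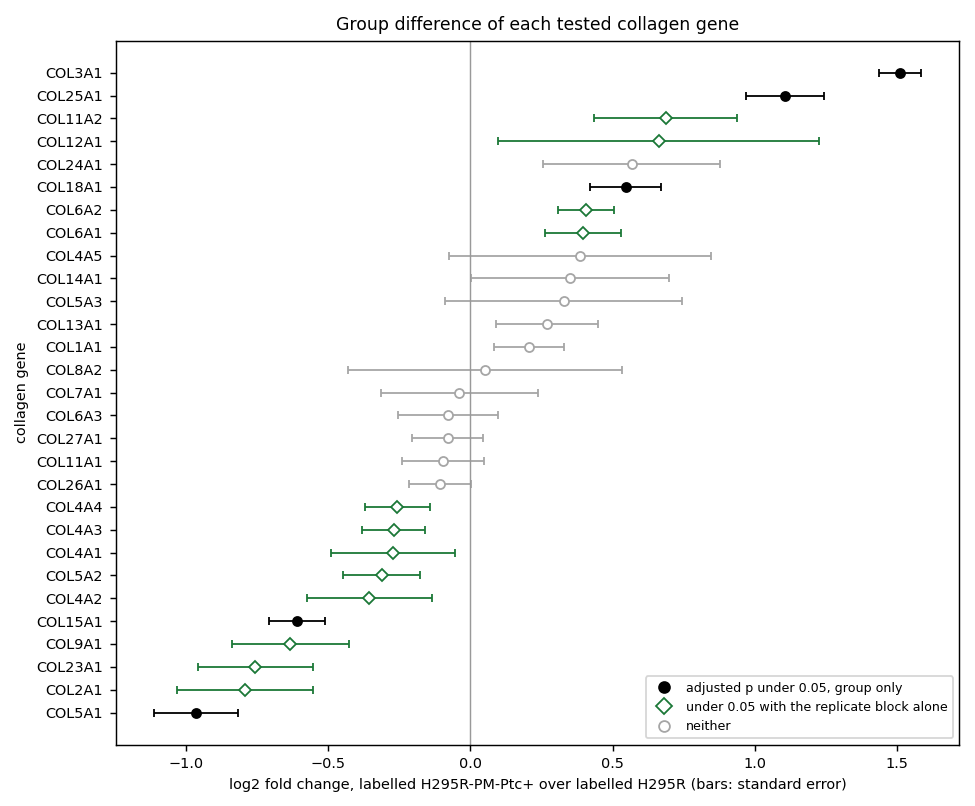
Log2 fold change (labelled H295R-PM-Ptc+ over labelled H295R) of the 29 tested collagen genes with its standard error, from the fit with group only, in order of size. The 5 filled circles passed in that fit, from COL3A1 at 1.51 to COL5A1 at -0.96, and the 12 open green diamonds passed with the replicate block alone.

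Among the fibrillar collagens, COL3A1 and COL5A1 moved in opposite directions. COL3A1, on chromosome 2 from 188974320 to 189012746 (hg38, as all positions here), encodes the only chain of collagen III, the collagen of fine reticular fibers. It had 577, 573 and 575 counts in the H295R-labelled libraries and 1760, 1585 and 1545 in the H295R-PM-Ptc+-labelled ones. The 3 lower values were nearly equal, and the groups lay far apart. This is 3.42 ± 0.117 against 9.76 ± 0.376 RPKM (SD, n = 3 each) and a log2 fold change of 1.51 (SE 0.0737, adjusted p = 1.31e-04, edgeR), with an adjusted p between 4.07e-05 and 0.0038 when each library was left out in turn.

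COL5A1, on chromosome 9 from 134641774 to 134844843, encodes the α1 chain of collagen V, a minor fiber component that starts the assembly of fibers of collagens I and III. It had 738, 861 and 1071 counts in the H295R-labelled libraries and 398, 470 and 486 in the others, so every library of one label lay above every library of the other. Its level was 3.22 ± 0.58 against 1.65 ± 0.244 RPKM (SD, n = 3 each), or a log2 fold change of -0.96 (SE 0.149, adjusted p = 0.0093, edgeR), and it passed with each of the 6 libraries left out. COL5A2, the α2 chain that joins α1 chains in the common collagen V trimer, lies next to COL3A1 on chromosome 2, from 189031896 to 189179879. It had 382, 470 and 471 counts against 302, 417 and 337, where replicate 2 of the latter reached above replicate 1 of the former in CPM, with a log2 fold change of -0.31 (SE 0.137, adjusted p = 0.285, and 0.0105 with the replicate block). COL5A3, the third collagen V chain, had 5 to 18 counts in every library (log2 fold change 0.33, SE 0.417, adjusted p = 0.765).

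The stretch upstream of COL5A1 is shown as that of the fibrillar gene that was lower. It was taken from RefSeq on GRCh38.p14, which lists a window 250 bases before to 50 bases after a start for 32 of the 44 genes, and only bases before the start and outside annotated exons are printed, 5′ to 3′ on the strand of the gene. COL3A1 has no entry. Capitals mark matches, on either strand, to 3 short promoter motifs, the TATA box (TATAAA), the CCAAT box (CCAAT) and the GC box (GGGCGG), and such matches are only letters, not shown binding sites. Of all 35116 windows in the table, 10.72% hold the TATA box, 32.01% the CCAAT box and 42.64% the GC box. The COL5A1 stretch covers 221 bases, chr9:134641553-134641773 on the plus strand, and holds 2 GC boxes.
COL5A1: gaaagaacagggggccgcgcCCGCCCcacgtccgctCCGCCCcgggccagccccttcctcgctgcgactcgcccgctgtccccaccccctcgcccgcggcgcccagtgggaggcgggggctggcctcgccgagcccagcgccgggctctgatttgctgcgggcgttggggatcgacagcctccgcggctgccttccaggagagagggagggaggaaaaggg

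COL11A1, the α1 chain of the cartilage collagen XI, was the highest fibrillar gene and the third highest of all collagens. It had 2669, 3241 and 3297 counts in the H295R-labelled libraries and 2282, 3283 and 2944 in the H295R-PM-Ptc+-labelled ones, and the groups overlapped (log2 fold change -0.10, SE 0.144, adjusted p = 0.805). Its partner COL11A2 had 64, 49 and 42 counts against 109, 85 and 56, with a log2 fold change of 0.69 (SE 0.251, adjusted p = 0.195, and 0.0066 with the replicate block), with overlap, so that the RPKM of COL11A1 was 17.1 to 64.0 times that of COL11A2. COL2A1, which encodes cartilage collagen II and, in a modified form, the third chain of collagen XI, was low, at 34, 27 and 28 counts against 16, 20 and 15, without overlap (log2 fold change -0.79, SE 0.24, adjusted p = 0.118, and 0.0432 with the block). COL11A2 lies in the major histocompatibility region, which the annotation also carries on alternate sequences, so its RPKM uses the exon length on the main chromosome.

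Of the chains of collagen I, 1 had enough counts for the test. COL1A1 had 210, 188 and 220 counts in the H295R-labelled libraries and 224, 240 and 244 in the others, with overlapping RPKM (log2 fold change 0.21, SE 0.124, adjusted p = 0.455). COL1A2, the α2 chain of the usual collagen I trimer, had 0, 3 and 1 counts against 3, 1 and 5 and could not be tested. COL27A1 (752 to 1061 counts, log2 fold change -0.08, adjusted p = 0.818) and COL24A1 (7 to 15 counts, log2 fold change 0.57, adjusted p = 0.414), the 2 fibrillar genes related to embryonic cartilage and bone matrix, did not pass in either fit.

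The basement membrane collagens gave 36.3% ± 3.79 of the summed collagen RPKM in the H295R-labelled libraries and 31.0% ± 3.97 in the H295R-PM-Ptc+-labelled ones (SD, n = 3 each). The ranges overlapped, while by replicate number the shares were 26.5% against 31.9%, 32.7% against 37.8% and 33.9% against 39.0%, each below its H295R-labelled partner. COL4A1 and COL4A2, the α1 and α2 chains of the collagen IV found in nearly every basement membrane, lie head to head on chromosome 13, with RefSeq starts 127 bases apart. COL4A2 had 4310, 6305 and 7409 counts in the H295R-labelled libraries and 3413, 5072 and 5373 in the H295R-PM-Ptc+-labelled ones. COL4A1 had 1921, 2940 and 3363 against 1677, 2478 and 2543. For both genes replicate 1 was the lowest library of each label, and each H295R-PM-Ptc+-labelled library was below the H295R-labelled one of the same number, while the groups as a whole overlapped. The log2 fold changes were -0.35 (SE 0.221, adjusted p = 0.472) for COL4A2 and -0.27 (SE 0.219, adjusted p = 0.599) for COL4A1. With 1 library left out they ran from -0.53 (without H295R-PM-Ptc+ replicate 3) to -0.16 (without H295R-PM-Ptc+ replicate 1) for COL4A2 and from -0.46 (without H295R replicate 1) to -0.0865 (without H295R-PM-Ptc+ replicate 1) for COL4A1, and neither passed in any of these fits. With the replicate block both passed, at log2 fold changes of -0.36 (SE 0.0444, adjusted p = 2.56e-05) and -0.27 (SE 0.046, adjusted p = 4.88e-04), and without both libraries of replicate 1, a comparison added after the values were seen, they had adjusted p-values of 0.0297 and 0.04997.

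The 2 genes kept a nearly constant ratio. The RPKM of COL4A2 was 2.11, 2.02 and 2.07 times that of COL4A1 in the H295R-labelled libraries and 1.91, 1.93 and 1.99 times in the others, while the level of COL4A2 itself varied from 15.3 to 34.4 RPKM. The 109 bases of the shared stretch outside annotated exons, chr13:110307158-110307266 read on the minus strand towards COL4A1, are shown since both genes start from it. They hold 1 match each to the CCAAT box and the GC box, both on the opposite strand as printed.
COL4A1 and COL4A2: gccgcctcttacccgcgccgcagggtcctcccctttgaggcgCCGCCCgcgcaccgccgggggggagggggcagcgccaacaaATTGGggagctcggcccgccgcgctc

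COL4A3 and COL4A4, the α3 and α4 chains of the specialised collagen IV of kidney and lung, also lie head to head, on chromosome 2, with starts 419 bases apart. COL4A4 had 1215, 1283 and 1306 counts in the H295R-labelled libraries and 897, 1177 and 1081 in the H295R-PM-Ptc+-labelled ones, without overlap in CPM (log2 fold change -0.26, SE 0.114, adjusted p = 0.293, and 0.0136 with the replicate block). COL4A3 had 673, 605 and 538 against 485, 527 and 486, again without overlap in CPM (log2 fold change -0.27, SE 0.11, adjusted p = 0.250, and 0.0356 with the block). The pair thus differed by nearly the same amount, and the RPKM of COL4A4 was 1.66 to 2.24 times that of COL4A3. Their trimer also needs the α5 chain, but COL4A5 had only 3 to 12 counts in a library (log2 fold change 0.39, SE 0.461, adjusted p = 0.7505), and its head-to-head neighbour COL4A6, with a start 380 bases away, had none. The 250 bases before the start of COL4A4, chr2:227164206-227164455 on the minus strand, reach towards COL4A3 and match none of the 3 motifs.
COL4A4: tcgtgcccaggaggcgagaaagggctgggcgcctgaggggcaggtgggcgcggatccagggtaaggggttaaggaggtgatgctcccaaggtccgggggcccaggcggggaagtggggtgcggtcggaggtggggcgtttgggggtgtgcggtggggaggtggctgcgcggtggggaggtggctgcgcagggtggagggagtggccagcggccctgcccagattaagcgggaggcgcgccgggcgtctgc

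The multiplexins, relatives in sequence, moved in opposite directions. COL15A1, on chromosome 9 from 98943179 to 99070792, encodes the core of a chondroitin sulfate proteoglycan that links basement membranes to the fibers below. It had 3788, 4554 and 4863 counts in the H295R-labelled libraries and 2728, 3000 and 2848 in the H295R-PM-Ptc+-labelled ones, with all of the latter below all of the former. Its level of 26.8 ± 2.87 against 17.6 ± 1.32 RPKM (SD, n = 3 each) gave a log2 fold change of -0.61 (SE 0.0992, adjusted p = 0.0120, edgeR). The adjusted p was 0.0524 without H295R-labelled replicate 2, 0.0580 without H295R replicate 3 and 0.0524 without H295R-PM-Ptc+ replicate 2, and the fold change stayed between -0.69 and -0.54 over the 6 libraries left out.

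COL18A1, on chromosome 21 from 45405137 to 45513720, encodes the core of a heparan sulfate proteoglycan whose C-terminal end is released as endostatin. It had 902, 909 and 1094 counts in the H295R-labelled libraries and 1241, 1428 and 1529 in the others, also without overlap. This is 4.61 ± 0.52 against 6.73 ± 1.03 RPKM (SD, n = 3 each), or a log2 fold change of 0.55 (SE 0.125, adjusted p = 0.0493, edgeR, and 1.22e-05 with the replicate block). The adjusted p was above 0.05 with limma-voom (0.0550), with relative log expression factors (0.0504) and with a minimum of 10 counts per library (0.0554). It was also 0.0620, 0.162 and 0.0831 without the H295R-labelled libraries replicate 1, 2 and 3, 0.1496 and 0.183 without H295R-PM-Ptc+ replicate 2 and 3, and 0.0250 without H295R-PM-Ptc+ replicate 1. COL18A1 shares 1401 bases of exon with SLC19A1 on the opposite strand, which held 9681 counts over the 6 libraries against 7103, and the counting was stated to use strand. Between these 2 genes, the RPKM of COL15A1 was 5.38, 6.42 and 5.70 times that of COL18A1 in the H295R-labelled libraries and 2.82, 2.69 and 2.39 times in the others.

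COL18A1 has 2 RefSeq starts, and both upstream stretches are shown because they differ in kind. The stretch before the first start, chr21:45404915-45405136 on the plus strand, has 222 bases with 9 matches to the GC box and 88.7% G and C. The one before the second start, which lies inside the gene, chr21:45455272-45455488 on the plus strand, has 217 bases with 1 TATA box and 64.1% G and C. The counts are summed over all exons, so they do not separate transcripts of the 2 starts.
COL18A1 first start: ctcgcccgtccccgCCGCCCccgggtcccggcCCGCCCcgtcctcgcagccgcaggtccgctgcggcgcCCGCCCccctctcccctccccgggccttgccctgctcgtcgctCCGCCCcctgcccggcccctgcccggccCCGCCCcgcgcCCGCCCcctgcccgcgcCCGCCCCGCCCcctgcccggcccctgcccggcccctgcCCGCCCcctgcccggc
COL18A1 second start: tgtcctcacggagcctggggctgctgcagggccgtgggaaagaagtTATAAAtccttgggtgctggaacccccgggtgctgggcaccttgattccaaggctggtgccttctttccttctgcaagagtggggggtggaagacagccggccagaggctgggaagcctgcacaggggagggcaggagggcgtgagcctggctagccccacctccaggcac

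The transmembrane collagens were low but held the second largest fold change among the 29 tested collagen genes. COL25A1, on chromosome 4 from 108810721 to 109302657, encodes a membrane-bound collagen first found in amyloid plaques of the brain and needed for motor axons to reach muscle. It had 256, 273 and 315 counts in the H295R-labelled libraries and 517, 632 and 649 in the H295R-PM-Ptc+-labelled ones, and the groups did not overlap. Its level was 1.71 ± 0.175 against 3.69 ± 0.598 RPKM (SD, n = 3 each), or a log2 fold change of 1.11 (SE 0.136, adjusted p = 0.0029, edgeR), with adjusted p-values between 0.0019 and 0.0204 over the 6 libraries left out. COL23A1, another membrane collagen, had 44, 58 and 43 counts against 28, 27 and 30, without overlap (log2 fold change -0.76, SE 0.201, adjusted p = 0.0814, and 0.0188 with the replicate block). COL13A1, found at the neuromuscular junction, had 72 to 111 counts (log2 fold change 0.27, SE 0.18, adjusted p = 0.507), and COL17A1, the hemidesmosome collagen of skin, had 1 to 7. COL25A1 thus took the class from 2.13% ± 0.204 to 3.76% ± 0.0805 of the summed collagen RPKM (SD, n = 3 each). The 250 bases before its start, chr4:109302659-109302908 on the minus strand, are shown for the higher membrane collagen and match none of the 3 motifs, at 70.0% G and C.
COL25A1: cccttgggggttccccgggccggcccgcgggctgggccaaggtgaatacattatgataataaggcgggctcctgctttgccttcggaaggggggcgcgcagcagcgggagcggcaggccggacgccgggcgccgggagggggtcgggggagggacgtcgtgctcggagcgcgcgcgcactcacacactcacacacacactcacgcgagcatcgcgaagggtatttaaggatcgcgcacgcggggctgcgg

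The beaded filament collagens COL6A1 and COL6A2, the α1 and α2 chains of collagen VI, lie beside each other on chromosome 21, beyond COL18A1. COL6A2 had 1324, 1085 and 1204 counts in the H295R-labelled libraries and 1697, 1566 and 1511 in the H295R-PM-Ptc+-labelled ones, so the groups did not overlap. This is 9.09 ± 1.18 against 12.05 ± 0.322 RPKM (SD, n = 3 each), with a log2 fold change of 0.41 (SE 0.0982, adjusted p = 0.0590, and 1.04e-04 with the replicate block), and it also passed without H295R-labelled replicate 1 (0.0101), without the filter on counts (0.0137) and with DESeq2 (0.0224). COL6A1 had 196, 198 and 259 counts against 299, 268 and 286, also without overlap in CPM, with a log2 fold change of 0.40 (SE 0.135, adjusted p = 0.165, and 0.0062 with the block), nearly the same fold change. COL6A3, whose chain completes the usual collagen VI trimer, had 62, 69 and 78 counts against 60, 63 and 73, with overlap (log2 fold change -0.08, SE 0.175, adjusted p = 0.881). Per length the 3 chains were far from equal, with COL6A2 at 4.61 to 6.70 times COL6A1 and COL6A3 at 0.0546 to 0.0948 times COL6A1.

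**Figure D3:**
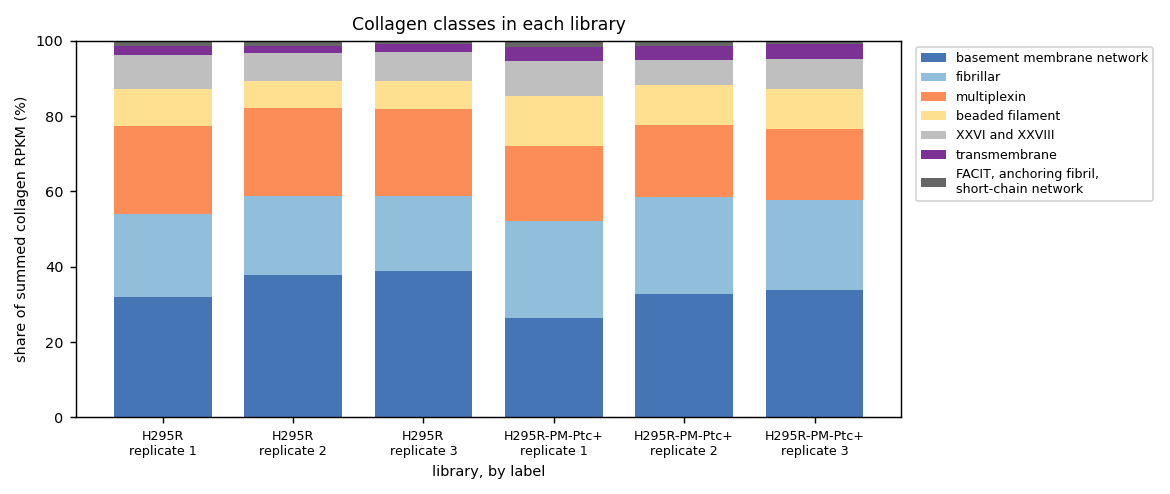
Share of each collagen class in the summed collagen RPKM of each library, as stacked bars that reach 100%, with the group of collagens XXVI and XXVIII in light grey. The transmembrane share is higher in each H295R-PM-Ptc+-labelled library and the multiplexin share is lower, while the basement membrane share of replicate 1 is the smallest within each label.

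The class shares summed these changes up. Multiplexins went from 23.2% ± 0.174 of the summed collagen RPKM in the H295R-labelled libraries to 19.2% ± 0.525 in the H295R-PM-Ptc+-labelled ones, and fibrillar collagens from 20.99% ± 1.13 to 25.1% ± 1.15, both without overlap between the libraries (SD, n = 3 each). The beaded filament class was at 8.13% ± 1.49 against 11.5% ± 1.64, also without overlap. The summed level of the fibrillar class, unlike its share, overlapped between the labels, at 26.9 to 29.9 against 28.2 to 33.9 RPKM. COL3A1 alone stood at 3.42 against 9.76 RPKM. Of the 10 tested fibrillar genes, 5 had a positive and 5 a negative log2 fold change. Collagens XXVI and XXVIII, nearly all COL26A1, held 8.03% ± 0.891 against 8.004% ± 1.10. The summed collagen level was 135 ± 14.8 against 126 ± 15.2 RPKM. The ranges of this total overlapped, while within each replicate number the H295R-PM-Ptc+-labelled library stood below the H295R-labelled one, at 109.5 against 121.5, 130.9 against 133.2 and 139.0 against 150.9 RPKM, which was not tested. As these are shares of 1 total, they are not independent.

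No gene of the remaining classes passed in the fit with group only. COL26A1, the only tested member of its group and a testis and ovary matrix protein, had 702 to 922 counts (log2 fold change -0.11, SE 0.109, adjusted p = 0.697). COL9A1, the α1 chain of collagen IX on the surface of cartilage fibers, had 55, 77 and 61 counts in the H295R-labelled libraries and 39, 36 and 48 in the others, without overlap (log2 fold change -0.63, SE 0.205, adjusted p = 0.144, and 0.0295 with the replicate block). COL12A1, which sits on collagen I fibers of tendon and ligament, had 6, 52 and 37 counts against 24, 66 and 58. Replicate 1 was again the lowest of each label, and COL12A1 had an adjusted p of 0.625 (log2 fold change 0.66, SE 0.564) without the block and of 0.0380 (log2 fold change 0.71, SE 0.233) with it. Its fold change lay between 0.19 without H295R replicate 1 and 1.19 without H295R replicate 2, and without both libraries of replicate 1 it was 0.54 (adjusted p = 0.149). COL14A1 (7 to 18 counts, log2 fold change 0.35, adjusted p = 0.689), COL8A2 (4 to 16 counts, log2 fold change 0.05, adjusted p = 0.975) and COL7A1, the anchoring fibril collagen of skin (142 to 327 counts, log2 fold change -0.04, adjusted p = 0.967), passed in neither fit.

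**Figure D4:**
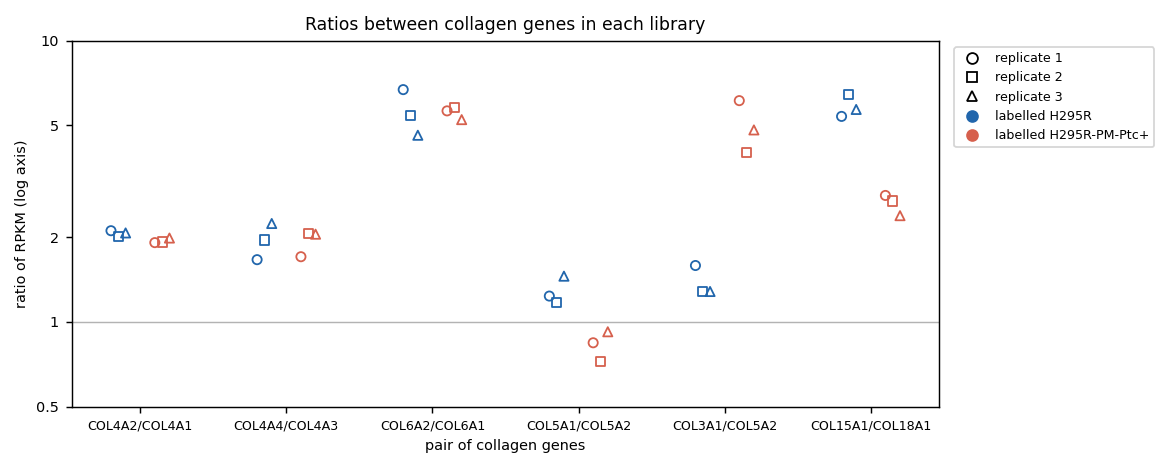
Ratio of the RPKM of 2 collagen genes in each library on a log axis, with blue symbols for libraries labelled H295R, red for the H295R-PM-Ptc+-labelled ones and 1 symbol shape for each replicate number. The ratios of COL4A4 to COL4A3 and of COL6A2 to COL6A1 overlap between the labels, while the other 4 do not, with COL4A2 to COL4A1 the closest of these.

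Ratios between genes of 1 library do not depend on library size. COL5A1 stood at 1.29 ± 0.148 times COL5A2 per length in the H295R-labelled libraries and at 0.829 ± 0.101 times in the H295R-PM-Ptc+-labelled ones (SD, n = 3 each), so the order of the collagen V chains turned, without overlap. COL3A1 stood at 1.38 ± 0.176 times its neighbour COL5A2 against 4.98 ± 1.07 times, also without overlap. The ratio of COL4A2 to COL4A1 was 2.07 ± 0.0468 against 1.94 ± 0.0394, a small difference that likewise did not overlap, and those of COL4A4 to COL4A3 and of COL6A2 to COL6A1 overlapped. COL6A3 stood at 0.0876 ± 0.0066 times COL6A1 against 0.0627 ± 0.0075 times, without overlap. No test was made on these ratios, which follow from the genes tested above.

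Of 35 genes that fold, modify, export, cut or cross-link collagen chains, 30 were tested, 3 were higher and 0 lower in the H295R-PM-Ptc+-labelled libraries (edgeR, adjusted p under 0.05), with a median log2 fold change of 0.09. Over all tested genes 2.42% were higher and 1.32% lower. At an unadjusted p under 0.05 the numbers were 7 and 0, where 17.3% of all tested genes passed in either direction, and DESeq2 also called 0 lower. PCOLCE, an enhancer of the protease that cuts the C-terminal propeptide from fibrillar collagens, had 357, 259 and 318 counts in the H295R-labelled libraries and 757, 645 and 657 in the others (log2 fold change 1.14, SE 0.135, adjusted p = 0.0023). LOXL3, a lysyl oxidase that cross-links collagen, had 92, 89 and 91 counts against 171, 151 and 167 (log2 fold change 0.86, SE 0.131, adjusted p = 0.0090, and 0.0544 and 0.0518 without H295R replicate 3 and H295R-PM-Ptc+ replicate 3). CREB3L1, an endoplasmic reticulum transcription factor that drives collagen I genes in bone, had 3, 5 and 7 counts against 44, 29 and 23 (log2 fold change 2.65, SE 0.374, adjusted p = 0.0061). Its H295R-labelled libraries thus lay near the detection limit, it passed the filter through the other group, and where each library had to hold 10 counts or more it was left out and 2 biosynthesis genes passed. None of PCOLCE, LOXL3 and CREB3L1 overlapped between the labels. COL1A1, as given above, did not pass (log2 fold change 0.21). A link between CREB3L1 and the collagen I genes was not tested.

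With the replicate block 8 of the 30 passed, 7 higher and 1 lower, beside 22.5% of all tested genes, with 12.1% higher and 10.4% lower. The additional higher genes were P4HA2 and P4HB, 2 subunits of prolyl 4-hydroxylases, LEPREL1, a prolyl 3-hydroxylase, and SEC24D, a coat protein of the vesicles that export procollagen, each at a log2 fold change between 0.20 and 0.37. P4HA1, the other common catalytic subunit of prolyl 4-hydroxylase, was lower with the block (adjusted p = 0.0342), at a log2 fold change of -0.21 (adjusted p = 0.326) in the fit without it. SERPINH1, the collagen chaperone HSP47, had 4840 to 5525 counts and a log2 fold change of -0.01 (adjusted p = 0.976). The cross-linking enzymes LOX and LOXL4 had no counts, and LOXL1 had 0, 0 and 1 counts against 6, 2 and 4. LOXL2 had 143 to 235 counts and a log2 fold change of -0.17 (SE 0.176, adjusted p = 0.706, edgeR).

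**Figure D5:**
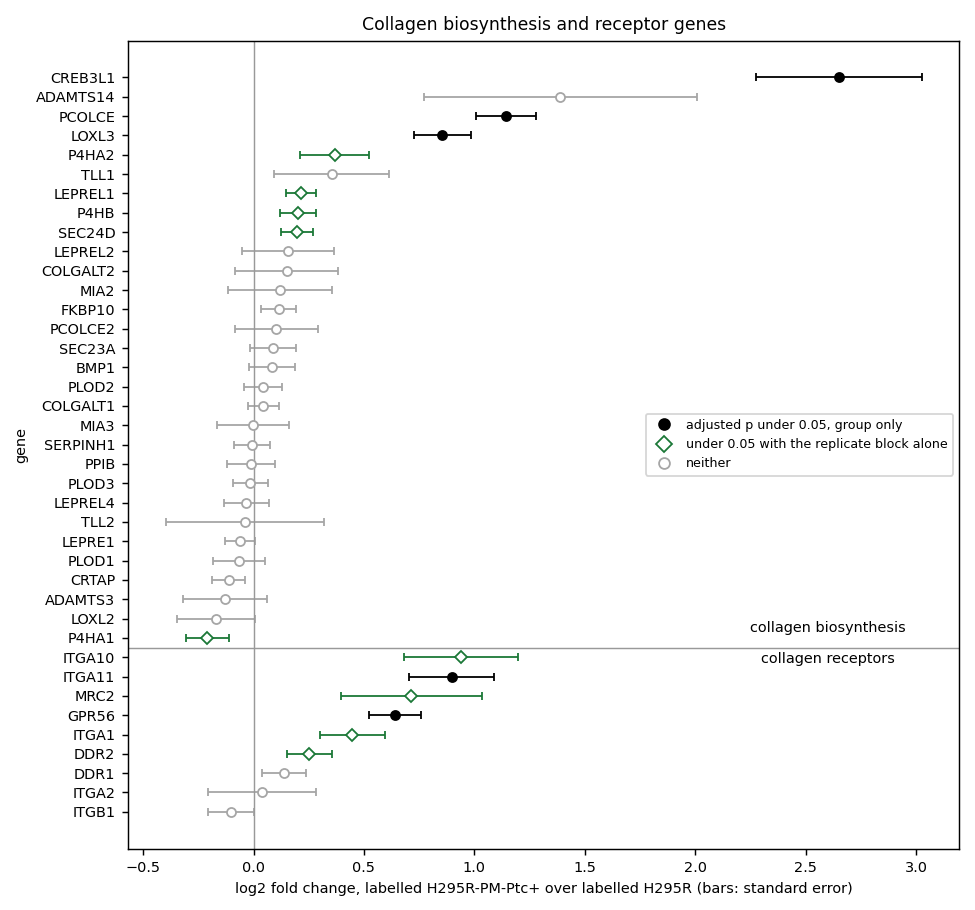
Log2 fold change (labelled H295R-PM-Ptc+ over labelled H295R) with its standard error for the 30 tested genes of collagen biosynthesis and the 9 tested collagen receptors. Filled circles passed in the fit with group only, from CREB3L1 at 2.65 to GPR56 at 0.64, and open green diamonds passed with the replicate block alone.

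Of 11 collagen receptors on the cell surface, 9 were tested, 2 were higher and 0 lower (edgeR), with a median log2 fold change of 0.45, beside 2.42% higher and 1.32% lower over all tested genes. At an unadjusted p under 0.05 the numbers were 5 and 0, beside 17.3% of all tested genes in either direction, and DESeq2 also called 0 lower. ITGA11, the integrin chain that binds fibrillar collagen, had 57, 55 and 79 counts in the H295R-labelled libraries and 135, 99 and 120 in the others (log2 fold change 0.90, SE 0.193, adjusted p = 0.0405), but its adjusted p lay between 0.0530 and 0.151 with any of the 6 libraries left out. GPR56, the adhesion receptor of collagen III now named ADGRG1, had 184, 202 and 214 counts against 348, 327 and 258 (log2 fold change 0.64, SE 0.117, adjusted p = 0.0202). Its adjusted p was 0.0799 and 0.0666 without H295R replicate 2 and 3, and 0.0620 and 0.0896 without H295R-PM-Ptc+ replicate 1 and 2. DDR1, ITGA2 and ITGB1 passed in neither fit, at log2 fold changes of 0.14, 0.04 and -0.10 without the block. ITGB1, the most abundant receptor listed, stood at 606 ± 57.5 against 564 ± 56.4 CPM (SD, n = 3 each). With the replicate block 6 of the 9 passed, all higher (12.1% of all tested genes were). ITGA1, ITGA10, DDR2 and MRC2 were added at log2 fold changes of 0.45, 0.94, 0.25 and 0.71. Of these, ITGA1 and DDR2 were abundant, at 272 ± 53.0 against 371 ± 44.2 CPM and 165 ± 16.8 against 197 ± 17.4 CPM (SD, n = 3 each). Beside these stand the fibroblast markers, of which THY1 was also higher, at 18, 18 and 15 counts against 36, 45 and 43 (log2 fold change 1.29, SE 0.226, adjusted p = 0.0175), and FAP stood at 0.33 on the log2 scale (adjusted p = 0.0755, 0.0128 without both libraries of replicate 1 and 4.33e-04 with the replicate block). PDGFRA, with 12, 12 and 7 counts against 4, 6 and 7, and PDGFRB, with 2, 4 and 0 against 1, 1 and 1, were too low for the test. The adjusted p of THY1 was 0.0678 and 0.0907 without H295R replicate 2 and 3, and 0.0787 and 0.0816 without H295R-PM-Ptc+ replicate 2 and 3. LUM and POSTN had no counts, and DCN had 0, 1 and 0 counts against 5, 1 and 3. The part of such markers in the collagen values was not tested.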

How the data were processed

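Per the labels and the study's methods, stranded libraries were made from RNA of 6 samples and read from both ends. The labels name a total RNA kit and polyA RNA, the methods an mRNA kit. The authors mapped the reads to hg38 with STAR 2.4.0a and assigned fragments to gene names by featureCounts, using strand and the primary position of multiply mapped reads (Subread 1.5.0-p3 in the submitters' processing notes, another release in the methods). The values are raw counts as the authors deposited them, without normalization. 1 row without a gene name held 0 counts and was left out.

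Counts were scaled with TMM factors, filtered with filterByExpr and tested with the quasi-likelihood F-test of edgeR 4.0.16 in R 4.3.3, group as the only term, adjusted over all 16710 genes that passed, at a threshold of 0.05. Tests were tried on simulated data first. CPM and RPKM use TMM-scaled library sizes, with a mean and SD over 3 libraries. The depth of 23264403 to 25813247 counts puts 3 counts, the limit of detection, at 0.117 to 0.130 CPM. Collagen members by the name rule, their classes and the lists of biosynthesis, receptor and marker genes were chosen with earlier results of these data known. Named genes were those that passed with or without the block, the 10 with the highest RPKM, chain partners, and list genes that passed. Members outside that rule were named after their values were seen.

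Replicate numbers come from the labels, which give same-numbered libraries of both groups the same code without saying what it marks. The study states no pairing in its methods, so the fit without it is the main one. Across genes, the departures of same-numbered libraries from their group mean (log2 CPM) had correlations of 0.497, 0.307 and 0.228. Those of other pairs were -0.352 to 0.150. As each group of 3 was centred on its own mean, these values depend on each other. Replicates 2 and 3 also correlated positively across numbers (0.150 and 0.109), so the pairing is clearest for replicate 1. The numbers were taken to pair the libraries and entered as a block in a further fit. The other alternatives were DESeq2 1.42.0, limma-voom (limma 3.58.1), relative log expression factors, no filter, at least 10 counts in every library, each library left out and, chosen after seeing the data, both libraries of replicate 1 left out. Upstream sequences came from RefSeq on GRCh38.p14. Summaries used pandas 2.3.3 under Python 3.11.15, and figures matplotlib 3.10.9.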

Additional observations from a re-analysis of the deposited data

How the results depend on the processing

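The collagen counts depended most on the replicate block, which gave 17 genes, 7 higher and 10 lower, in place of 5, 3 and 2, with 8 biosynthesis genes in place of 3, 6 receptors in place of 2 and 3758 of all tested genes in place of 624. Without both libraries of replicate 1, chosen after seeing the data, 8 collagen genes passed, 4 of them lower, with 5 biosynthesis genes, 6 receptors and 2013 of all tested genes, and COL6A2, COL4A1 and COL4A2 joined the 5. With no filter on low counts 1111 of all tested genes passed. With each library left out in turn, 3 to 5 collagen genes passed (2 to 3 higher, 1 to 2 lower), 2 to 3 biosynthesis genes, 0 to 1 receptors and 219 to 810 of all tested genes. DESeq2, limma-voom, relative log expression factors, no filter and at least 10 counts in every library gave 4 to 6 collagen genes, and the call of COL18A1 was the only collagen call lost among these. COL3A1, COL25A1 and COL5A1 passed in every fit run.

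Among collagen genes, the sign changed only in genes that passed in no fit. With 1 library left out, the log2 fold change of COL27A1 lay between -0.17 and 0.0716, that of COL7A1 between -0.26 and 0.22, that of COL5A3 between -0.0198 and 0.63, that of COL8A2 between -0.34 and 0.31, that of COL11A1 between -0.20 and 0.0546 and that of COL6A3 between -0.22 and 0.0013. Without both libraries of replicate 1 the values were 0.0801 for COL27A1, 0.0085 for COL7A1 and -0.0909 for COL4A5. The cause of these changes was not tested. Of the 15 collagen genes with too few counts for the test, 9 were detected, and for the 6 others low expression and no expression cannot be told apart at this depth.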
